A study of Mus musculus with 84 samples.

Results

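The 33 genes described here make, sense, export, move and store cholesterol. They were chosen by gene symbol from a fixed list and found by their Ensembl identifiers among the 48794 genes of the tables. All 33 were listed, and all 33 passed the filter on low values in both tissues. By role, 8 genes act in the mevalonate and isoprenoid steps, 11 lead from squalene to cholesterol, 4 belong to sterol sensing, 5 to export and 5 to uptake control, trafficking and storage.

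RNA was sequenced from liver and epididymal white adipose tissue (eWAT) of male C57BL/6J mice made obese on a 60% high-fat diet (DIO mice), which were 22 weeks old when treatment began. Mice received a subcutaneous injection every day for 30 days, and 7 groups of 6 mice were sequenced in each tissue. The groups received vehicle, the dual glucagon-like peptide-1 receptor and glucagon receptor agonist BI 456906 at 3, at 10, at 20 or at 30 nmol/kg, or the glucagon-like peptide-1 receptor agonist semaglutide at 20 or 100 nmol/kg. All mice, those given vehicle included, were C57BL/6J and stayed on the high-fat diet, and no lean group was analysed here. Whole pieces of tissue were used, in which fewer cells of a type and less RNA per cell cannot be told apart.

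Cells build cholesterol from acetyl-CoA through mevalonate, farnesyl diphosphate, squalene and lanosterol. The transcription factor SREBP2, encoded by Srebf2, drives the genes of this path. When membranes hold enough sterol, the escort protein Scap binds the Insig proteins and SREBP2 stays in the endoplasmic reticulum; when sterol falls, Scap carries it to the Golgi, where it is cut and released. The liver X receptor Nr1h3 responds to oxysterols and raises the export pumps. The liver is a main site of cholesterol synthesis and the organ that releases cholesterol into bile, while fat tissue stores much free cholesterol.

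The 42 liver libraries held 21676902 to 53869104 reads on genes (median 43179390), and the 42 eWAT libraries 37573004 to 53996914 reads (median 46475069). The liver libraries showed hepatocyte transcripts: the summed level of 6 hepatocyte markers was 94853 to 112180 TPM with vehicle and 98480 to 108350 TPM at 30 nmol/kg. The single markers did change: by the test used below 2 of the 6 passed as higher and 4 as lower at 30 nmol/kg of BI 456906, against 28.9% and 29.9% of all genes. The eWAT libraries showed adipocyte and macrophage transcripts but also liver transcripts. Alb, which encodes albumin, was at 9.87 to 3680 TPM in eWAT of vehicle mice (median 917) and at 12.1 to 548 TPM at 30 nmol/kg (median 59.4), where the liver median was 55280 TPM. In the eWAT library with the most Alb this was 6.66% of the liver median.

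In liver of vehicle mice the members spanned more than 100-fold in TPM, a length-normalised share of all transcripts. Insig2 was highest at 302 to 445 TPM (median 397), followed by Fdps at 139.8 to 383 TPM (median 242), Ebp at a median of 154 TPM, Sc5d at 141 TPM and Tm7sf2 at 126 TPM. The lowest were Mvd at 7.07 TPM, Abcg1 at 4.92 TPM and Ggps1 at 3.69 TPM. The ranges over mice of neighbours in this order overlapped in 30 of 32 pairs, so that most neighbours could not be ranked. In eWAT of vehicle mice the order was another one: Npc2 was highest at 426 to 612 TPM (median 488), followed by Abcg1, Nr1h3 and Abca1 at medians of 123, 111 and 106 TPM. Abcg5, Soat2 and Abcg8 were at or below 1.31 TPM there by median.

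In liver BI 456906 at 30 nmol/kg lowered 13 of the 19 synthesis genes and raised 2. Altogether 16 of the 33 members were lower than with vehicle and 6 were higher at a false discovery rate (FDR) of at most 0.05 (limma/voom, adjusted over 15964 genes). Of all genes tested 29.9% were lower and 28.9% were higher, so the share of members that fell was above the background and the share that rose was below it. The median log2 fold change against vehicle (log2FC) was -0.39 over the members, -0.72 over the 19 synthesis genes and -0.03 over all genes tested. With a log2FC of -1 or less required as well, 7 members remained, all of them synthesis genes, against 6.9% of all genes. The 6 TPM values at 30 nmol/kg lay wholly below the 6 of vehicle for 7 members (Acat2, Mvk, Fdps, Fdft1, Nsdhl, Sc5d and Soat2) and wholly above them for 3 (Ggps1, Abca1 and Abcg8). This held below for 10.8% and above for 18.6% of the genes tested.

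**Figure D1:**
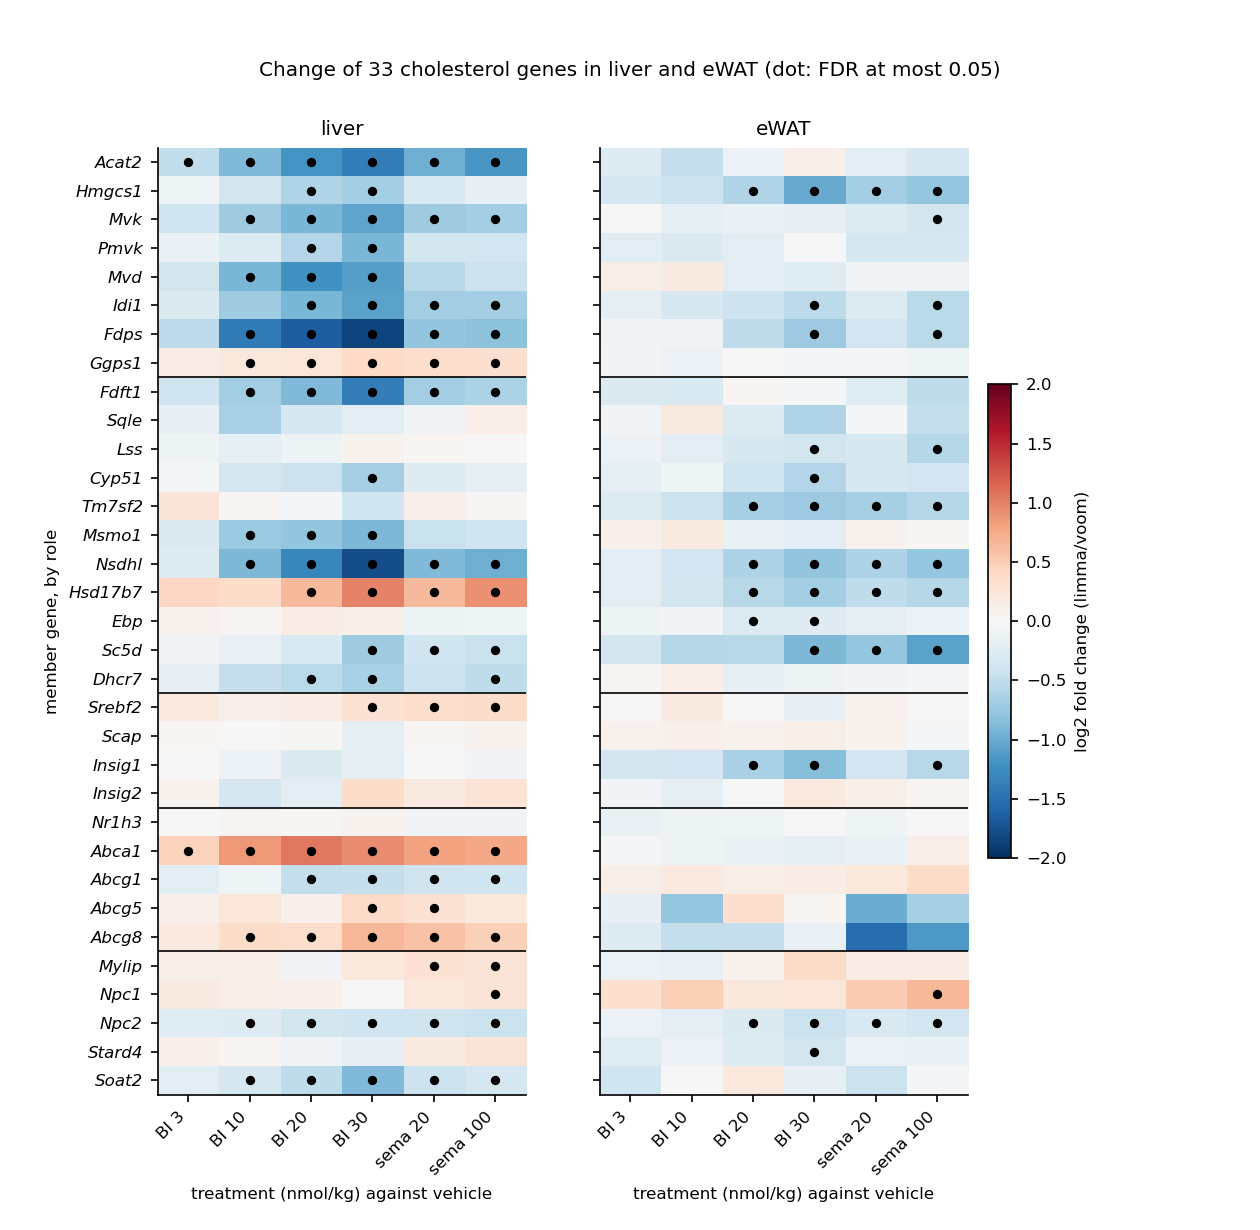
Log2 fold change against vehicle (colour, limma/voom) of the 33 genes in rows, grouped by role with lines between groups, for 6 treatments in columns, in liver (left) and eWAT (right); a dot marks an FDR of at most 0.05. In liver the synthesis genes are mostly blue with Hsd17b7 and Ggps1 red, and in eWAT dots stand on 13 genes at 30 nmol/kg, all of them lower.

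Of the 8 mevalonate and isoprenoid genes, 7 fell in liver at 30 nmol/kg and 1 rose. Acat2, the cytosolic thiolase that joins acetyl-CoA units at the head of the path, was at 41.7 to 74.7 TPM (median 58.7) with vehicle and at 33.5 to 64.1 TPM (median 39.4), 29.97 to 47.5 TPM (median 33.3), 21.1 to 32.5 TPM (median 27.7) and 21 to 26.6 TPM (median 23.6) at 3, 10, 20 and 30 nmol/kg. The 20 and 30 nmol/kg groups did not overlap vehicle. Its log2FC at 30 nmol/kg was -1.38 (SE 0.16, FDR 2.31e-09), and it was the one synthesis gene that already fell at 3 nmol/kg, by 0.48 (SE 0.15, FDR 0.0323).

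Fdps, farnesyl diphosphate synthase, made the largest fall of the members. It was at 139.8 to 383 TPM (median 242) with vehicle, 85.5 to 297 TPM (median 157) at 3 nmol/kg, 71.3 to 175 TPM (median 97.3) at 10 nmol/kg, 62.4 to 96.4 TPM (median 68.3) at 20 nmol/kg and 25.4 to 90.2 TPM (median 74) at 30 nmol/kg. The groups at 20 and 30 nmol/kg lay below every vehicle mouse, and the medians of these groups were close to each other. The log2FC at 30 nmol/kg was -1.85 (SE 0.31, FDR 3.52e-06). Replicate 70 held the lowest value, and without it the log2FC was -1.58.

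The other steps of this stretch fell by less. At 30 nmol/kg Hmgcs1, the cytosolic HMG-CoA synthase, was at 38.4 to 74.5 TPM (median 53.7) against 60.2 to 94.8 TPM (median 89.8) with vehicle, a log2FC of -0.67 (SE 0.21, FDR 0.00606), and the groups overlapped. Mvk, mevalonate kinase, was at 4.53 to 6.62 TPM (median 4.91) against 7.63 to 14.9 TPM (median 10.2), without overlap, a change of -1.05 (SE 0.21, FDR 4.36e-05). The groups overlapped for the next genes in the path. Phosphomevalonate kinase, Pmvk, fell by 0.91 (FDR 0.000304) from a median of 50.6 to 28.5 TPM. The decarboxylase Mvd fell by 1.1 (FDR 0.00268) from 7.07 to 3.42 TPM. The isomerase Idi1 fell by 1.07 (FDR 0.00284) from 47.1 to 21.3 TPM.

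Ggps1 went the other way. It makes geranylgeranyl diphosphate, which is attached to proteins and leaves the sterol path. Its level was low, 2.33 to 3.88 TPM (median 3.69) with vehicle, 3.64 to 4.50 TPM (median 3.88) at 3, 3.96 to 4.70 TPM (median 4.26) at 10, 3.78 to 5.33 TPM (median 4.20) at 20 and 4.20 to 5.36 TPM (median 4.79) at 30 nmol/kg. The groups at 10 and 30 nmol/kg lay above every vehicle mouse, and the log2FC at 30 nmol/kg was 0.4 (SE 0.08, FDR 3.1e-05).

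**Figure D2:**
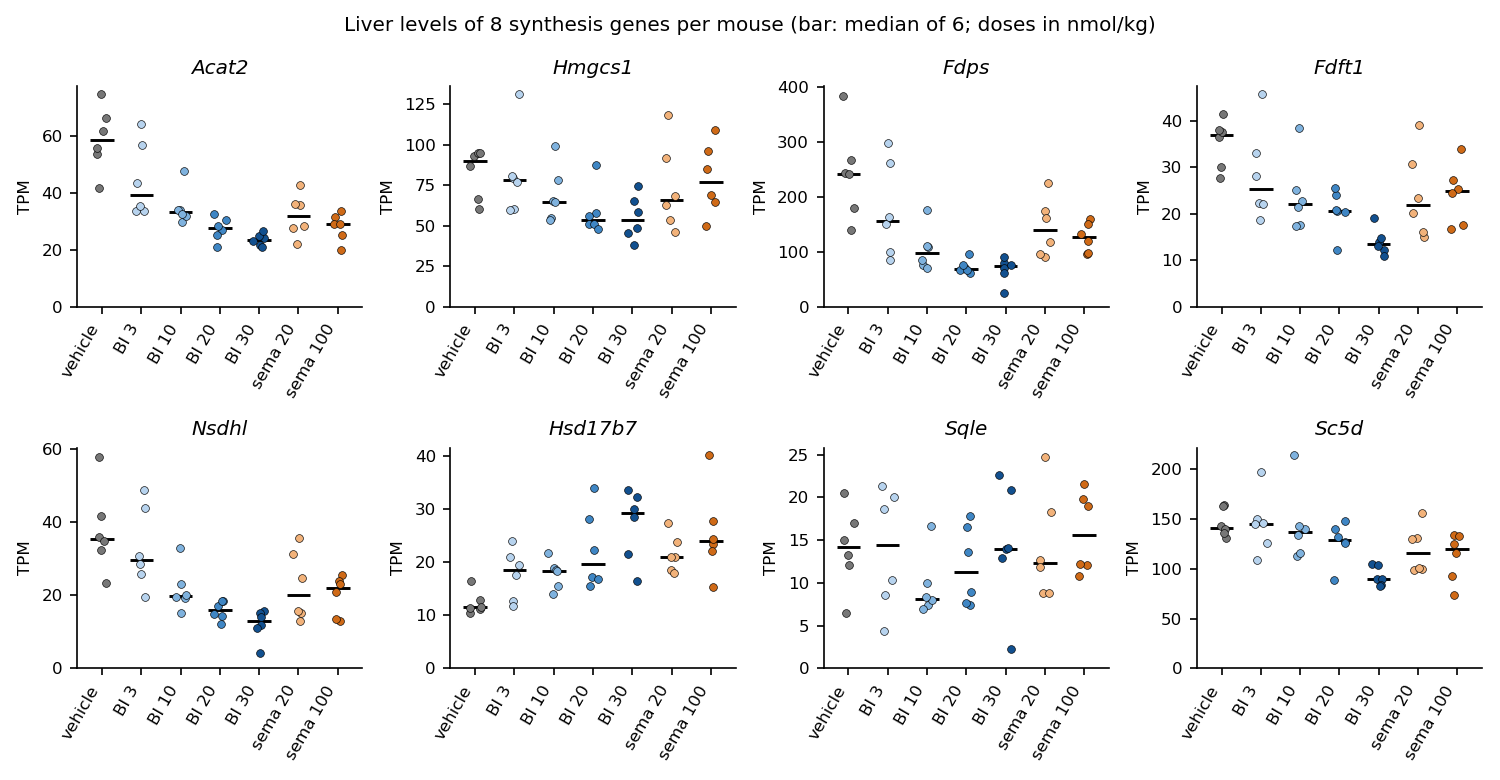
Levels in TPM (y axis, from 0) of 8 synthesis genes in each liver (points) by group (x axis, doses in nmol/kg), with a bar at the median of 6 mice. Acat2, Fdps, Fdft1 and Nsdhl at 30 nmol/kg lie below every vehicle mouse, Hsd17b7 is higher, and Sqle spreads from 2.3 to 22.6 TPM at 30 nmol/kg.

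From squalene to cholesterol 6 of 11 genes fell in liver at 30 nmol/kg, 1 rose and 4 did not pass. Fdft1, squalene synthase, which commits farnesyl diphosphate to sterols, was at 27.7 to 41.4 TPM (median 37) with vehicle, 18.8 to 45.8 TPM (median 25.3) at 3, 17.4 to 38.5 TPM (median 22.1) at 10, 12.3 to 25.5 TPM (median 20.7) at 20 and 11 to 19.1 TPM (median 13.6) at 30 nmol/kg. From 20 nmol/kg on, no treated mouse reached the lowest vehicle mouse, and the log2FC at 30 nmol/kg was -1.39 (SE 0.22, FDR 9.08e-07).

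Nsdhl and Hsd17b7 encode enzymes of the same stage, the removal of methyl groups from the sterol ring, and moved in opposite directions. Nsdhl was at 23.4 to 57.7 TPM (median 35.3) with vehicle, 19.5 to 48.7 TPM (median 29.8) at 3, 15.2 to 33 TPM (median 19.8) at 10, 12.1 to 18.4 TPM (median 16) at 20 and 4.26 to 15.8 TPM (median 12.9) at 30 nmol/kg, a log2FC of -1.78 (SE 0.28, FDR 1.14e-06) at the highest dose. Its groups at 20 and 30 nmol/kg lay below all vehicle mice. Hsd17b7 was at 10.4 to 16.5 TPM (median 11.5) with vehicle, 11.8 to 24.1 TPM (median 18.5) at 3, 14.1 to 21.7 TPM (median 18.4) at 10, 15.5 to 34 TPM (median 19.8) at 20 and 16.4 to 33.6 TPM (median 29.2) at 30 nmol/kg. It rose by 0.99 (SE 0.21, FDR 9.16e-05), the largest fitted rise of the members but within error of that of Abca1, and the lowest mouse at 30 nmol/kg fell just short of the highest vehicle mouse.

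Msmo1, the methylsterol oxidase that acts with them, fell by 0.9 (SE 0.29, FDR 0.00801) from a median of 50.7 to 27.8 TPM, with overlap. Sc5d, a sterol desaturase near the end of the path, was at 131 to 165 TPM (median 141) with vehicle and 82.8 to 105 TPM (median 89.7) at 30 nmol/kg, without overlap. Its log2FC was -0.72 (SE 0.14, FDR 2.92e-05), while at 20 nmol/kg it was -0.3 (FDR 0.0711). Dhcr7, the reductase of the last step, fell by 0.65 (FDR 0.00335) from 32.6 to 22.4 TPM by median. Cyp51, the lanosterol demethylase, fell by 0.66 (SE 0.27, FDR 0.034) from 30.4 to 23.1 TPM. The call for Cyp51 was lost without any one of vehicle replicates 45, 47 and 48 or of replicates 70 and 72 at 30 nmol/kg, and its log2FC was -0.41 (FDR 0.165) without replicate 70. With all mice kept, the call was also lost with no filter on low values and with sample quality weights. The same held in the limma fits on log2(TPM + 1) and log2(TPM + 0.1).

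Of the synthesis genes, 4 did not pass. Sqle, squalene epoxidase, a rate-limiting step, was at 6.44 to 20.5 TPM (median 14.2) with vehicle and 2.30 to 22.6 TPM (median 14) at 30 nmol/kg, a log2FC of -0.22 with a 95% interval of -1.02 to 0.58 (FDR 0.652). Lss, lanosterol synthase, was at medians of 10.01 and 10.2 TPM (log2FC 0.07, interval -0.27 to 0.41, FDR 0.734). Ebp, a sterol isomerase, was at 154 and 187 TPM (0.12, interval -0.07 to 0.31, FDR 0.275). Tm7sf2, a sterol reductase, was at 126 and 133 TPM (-0.39, interval -0.8 to 0.01, FDR 0.0884).

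Over the doses of BI 456906 the number of members that passed grew. At 3 nmol/kg 1 member was lower (Acat2) and 1 higher (Abca1), where 4.93% of all genes were lower and 8.46% higher. The counts were 9 lower and 3 higher at 10 nmol/kg, against 18.1% and 19.4% of all genes. At 20 nmol/kg 14 were lower and 4 higher, against 22.9% and 23%. The linear slope of the group means on dose, from vehicle to 30 nmol/kg, passed the test as negative for 18 members and as positive for 6, where 29.6% of all genes passed with a negative and 29.3% with a positive slope. Per 10 nmol/kg, Fdps changed by -0.58, Nsdhl by -0.58, Acat2 by -0.42 and Fdft1 by -0.41 on the log2 scale, and Hsd17b7 and Abca1 by 0.28 each. The summed level of the 19 synthesis genes had a median of 1161 TPM with vehicle, which was 876 TPM in the 10 nmol/kg and 789 TPM in the 30 nmol/kg group, and its ranges of 901 to 1532 and 545 to 892 TPM did not overlap between vehicle and 30 nmol/kg.

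Promoter sequences from RefSeq (GRCm38.p6, from 250 bases before to 50 after the transcript start) were found for 26 of the 33 members, with 34 windows in all, and not for Abcg1, Fdft1, Fdps, Npc1, Soat2, Sqle and Stard4. On both strands they were searched for the sterol regulatory element written TCACNCCAC, the letters that SREBP proteins bind, and for CCAAT, the box of the factor NF-Y that works beside SREBP. The first was found in 1 of 26 members, Hmgcs1. By windows this was 1 of the 34 of the members (2.94%), against 1.24% of the 32851 windows of all genes. The CCAAT box was found in 15 of 19 windows of the synthesis genes (78.9%) and in 7 of 15 windows of the other members (46.7%), while 37.4% of all windows held it. At least 2 boxes were present in 10 of the 19 synthesis windows and in 11.7% of all windows. A match describes letters only and is no shown binding site, and other spellings of the element were not searched.

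The windows of Hmgcs1 and Insig1 are shown as the synthesis gene with the element and the sterol sensor, and those of Nsdhl and Hsd17b7, chosen after their values were seen, because these genes moved in opposite directions. Each runs 5′ to 3′ on the strand of the gene, in lower case with the element and the CCAAT boxes (ATTGG on the other strand) in capitals, and the capitals do not overlap. In Hmgcs1 the element begins 137 bases before the start, with 3 boxes before the start and 1 after it. Nsdhl holds 4 boxes and Hsd17b7 holds 3.
Hmgcs1, chr13:119690101-119690400, plus strand: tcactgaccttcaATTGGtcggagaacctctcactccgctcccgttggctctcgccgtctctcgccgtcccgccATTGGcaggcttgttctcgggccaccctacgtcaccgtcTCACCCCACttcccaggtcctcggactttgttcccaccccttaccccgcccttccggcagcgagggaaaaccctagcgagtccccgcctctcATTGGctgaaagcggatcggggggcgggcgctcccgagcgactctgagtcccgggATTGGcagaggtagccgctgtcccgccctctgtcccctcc
Insig1, chr5:28071162-28071461, plus strand: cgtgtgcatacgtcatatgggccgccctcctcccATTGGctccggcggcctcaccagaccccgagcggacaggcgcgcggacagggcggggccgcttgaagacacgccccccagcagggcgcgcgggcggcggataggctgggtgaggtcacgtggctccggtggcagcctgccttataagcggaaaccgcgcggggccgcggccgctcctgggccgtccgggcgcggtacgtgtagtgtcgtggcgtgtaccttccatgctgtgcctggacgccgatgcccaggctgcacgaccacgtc
Nsdhl, chrX:72918271-72918570, plus strand: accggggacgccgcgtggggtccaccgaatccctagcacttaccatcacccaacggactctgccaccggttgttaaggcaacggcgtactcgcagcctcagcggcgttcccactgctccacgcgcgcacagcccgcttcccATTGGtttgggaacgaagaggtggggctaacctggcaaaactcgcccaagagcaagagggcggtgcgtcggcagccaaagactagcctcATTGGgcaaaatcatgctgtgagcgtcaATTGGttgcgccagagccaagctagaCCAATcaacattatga
Hsd17b7, chr1:169969156-169969455, minus strand: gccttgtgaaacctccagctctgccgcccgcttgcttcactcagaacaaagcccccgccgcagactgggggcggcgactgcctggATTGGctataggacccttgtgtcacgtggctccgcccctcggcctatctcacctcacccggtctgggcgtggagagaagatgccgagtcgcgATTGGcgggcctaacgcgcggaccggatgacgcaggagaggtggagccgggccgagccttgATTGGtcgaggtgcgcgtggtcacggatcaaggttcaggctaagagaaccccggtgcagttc

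Among the 4 sterol sensing genes only Srebf2 passed in liver at 30 nmol/kg. The slope on dose passed as positive for 1 of the 4 and as negative for 1, against 29.3% and 29.6% of all genes. The 4 slopes lay between -0.09 and 0.08 per 10 nmol/kg on the log2 scale. Srebf2 was at 15.9 to 20.3 TPM (median 17.6) with vehicle, 17.3 to 25.6 TPM (median 20.6) at 3, 18.1 to 23.8 TPM (median 20.8) at 10, 19.1 to 24 TPM (median 20.9) at 20 and 18.1 to 26.9 TPM (median 23.1) at 30 nmol/kg, with overlap between all these groups. It rose by 0.29 (SE 0.1, FDR 0.0116) while most synthesis genes fell. With semaglutide it was at 19.9 to 28.1 TPM (median 24.8) at 20 and 21.8 to 29.6 TPM (median 23.5) at 100 nmol/kg, the latter above all vehicle mice, and rose by 0.35 (FDR 0.0041) and 0.36 (FDR 0.00293).

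Scap, the escort of SREBP2, was at 35.8 to 57.6 TPM (median 47) with vehicle and at medians of 49.8, 50.6, 49.9 and 42.5 TPM at 3, 10, 20 and 30 nmol/kg, and of 53.3 and 53.3 TPM with semaglutide at 20 and 100 nmol/kg. No dose passed, and the value at 30 nmol/kg was -0.2 (SE 0.09, FDR 0.0563). Insig1, itself an SREBP target in textbook accounts, was at 64.6 to 100.2 TPM (median 83) with vehicle and 61.6 to 93.2 TPM (median 73) at 30 nmol/kg, a log2FC of -0.19 with an interval of -0.52 to 0.13 (FDR 0.305). The medians of Insig1 in the other groups were 84.7, 76.5 and 72.3 TPM at 3, 10 and 20 nmol/kg and 87.9 and 81.8 TPM with semaglutide at 20 and 100 nmol/kg, all within the range of vehicle.

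Insig2, the paralog that is abundant in liver, was at 302 to 445 TPM (median 397) with vehicle, 317 to 738 TPM (median 384) at 3, 299 to 361 TPM (median 338) at 10, 223 to 590.1 TPM (median 368) at 20 and 331 to 731 TPM (median 593) at 30 nmol/kg. Semaglutide gave 384 to 555 TPM (median 469.8) at 20 and 409 to 821 TPM (median 426) at 100 nmol/kg. All groups overlapped vehicle, the mice at 30 nmol/kg spread more widely than the vehicle mice, and the log2FC at 30 nmol/kg of 0.37 (interval -0.09 to 0.82, FDR 0.163) did not pass.

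**Figure D3:**
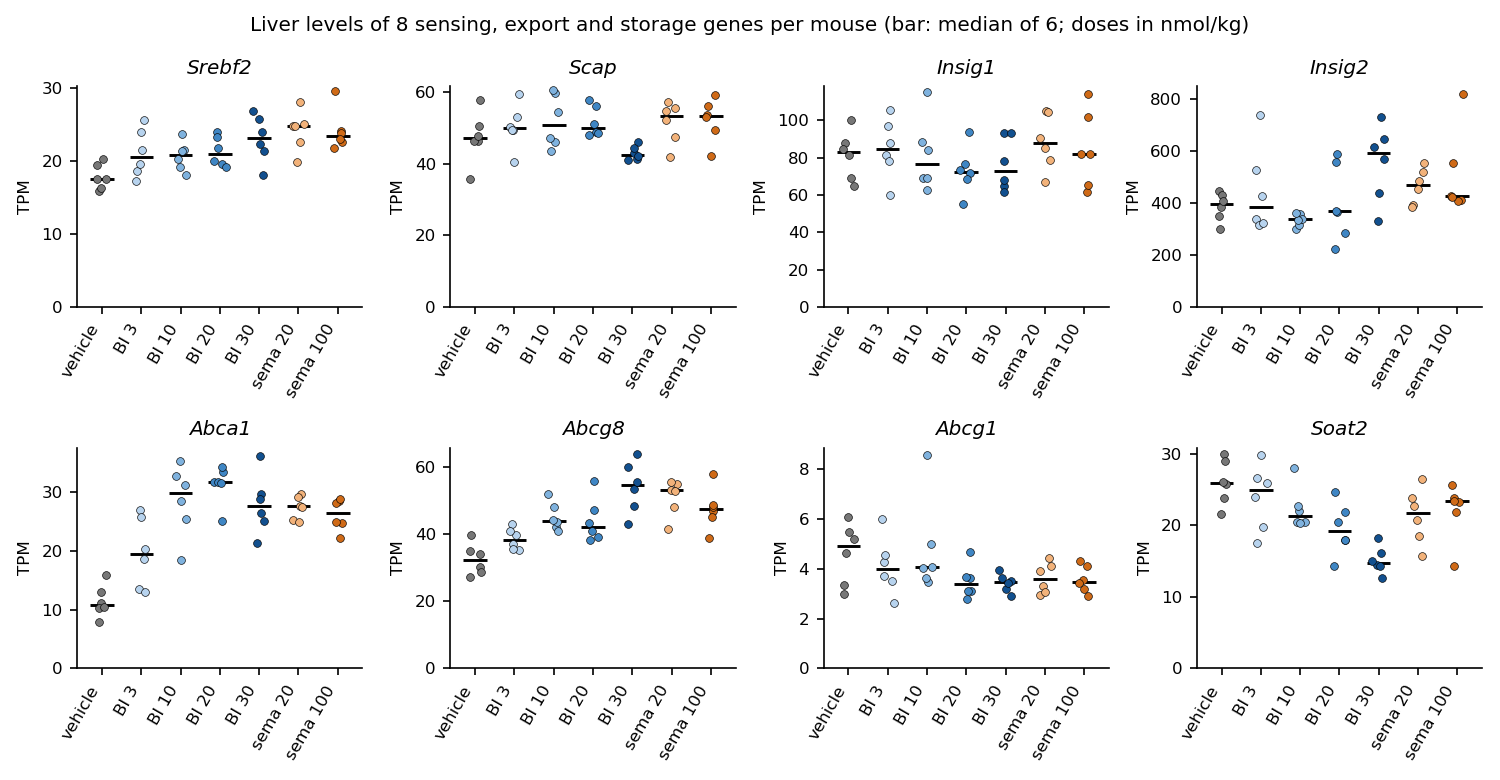
Levels in TPM (y axis, from 0) of 8 sensing, export and storage genes in each liver (points) by group (x axis, doses in nmol/kg), with a bar at the median of 6 mice. Abca1 and Abcg8 at 30 nmol/kg lie above every vehicle mouse, Soat2 lies below, and Insig1 overlaps vehicle in every group.

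The export genes moved mostly upwards in liver, with 3 of 5 higher and 1 lower at 30 nmol/kg. Abca1, which loads cholesterol onto apolipoprotein A-I, was at 7.92 to 16 TPM (median 10.8) with vehicle, 13 to 26.9 TPM (median 19.5) at 3, 18.5 to 35.3 TPM (median 29.8) at 10, 25 to 34.3 TPM (median 31.7) at 20 and 21.4 to 36.1 TPM (median 27.6) at 30 nmol/kg. From 10 nmol/kg on every treated mouse was above all vehicle mice, with a level at 30 nmol/kg no higher than at 20. The log2FC was 0.47 (SE 0.14, FDR 0.0275) at 3 and 0.94 (SE 0.15, FDR 8.49e-07) at 30 nmol/kg. It comes from reads per gene, and the log2 ratio of the mean TPM, 1.28, was larger, and by that ratio Abca1 rose more than Hsd17b7 (1.13).

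Abcg5 and Abcg8 form the pump that releases sterols into bile. Abcg8 was at 27.3 to 39.7 TPM (median 32.3) with vehicle, 35.4 to 43.1 TPM (median 38.4) at 3, 40.9 to 51.9 TPM (median 44) at 10, 38.4 to 55.9 TPM (median 42.3) at 20 and 43.1 to 64 TPM (median 54.7) at 30 nmol/kg. It rose by 0.67 (SE 0.11, FDR 4.22e-06), and the groups at 10 and 30 nmol/kg did not overlap vehicle. Its partner Abcg5 rose by 0.38 (SE 0.11, FDR 0.00256) from a median of 34.2 to 48.9 TPM, with overlap. The annotated bodies of these genes overlap by 6710 bases on opposite strands, and whether reads were assigned by strand is not given in the sources used here.

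Abcg1, a pump prominent in macrophages, was at 2.99 to 6.08 TPM (median 4.92) with vehicle and 2.91 to 3.97 TPM (median 3.46) at 30 nmol/kg, with overlap, and fell by 0.46 (SE 0.16, FDR 0.0134). Of 8 macrophage markers 4 fell in the same comparison, and none was at 0. Their summed level was 201 to 363 TPM (median 236) with vehicle and 150 to 245 TPM (median 234) at 30 nmol/kg, so the medians were close. Of 5 stellate cell and fibroblast markers 3 fell and 1 rose (summed level 156 to 295 against 144 to 218 TPM). The part of these cells in the result was not tested. In the limma fits on log2(TPM + 1) and log2(TPM + 0.1) Abcg1 did not pass (FDR 0.0812 and 0.0824). Nr1h3, the liver X receptor that drives these pumps, was at 80.5 to 94.5 TPM (median 85.3) with vehicle and 85 to 99.6 TPM (median 94.2) at 30 nmol/kg, a log2FC of 0.07 with an interval of -0.05 to 0.18 (FDR 0.325).

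In uptake control, trafficking and storage 2 of 5 genes fell in liver at 30 nmol/kg. Soat2, which esterifies cholesterol for lipoproteins in liver, was at 21.6 to 30.03 TPM (median 25.9) with vehicle, 14.3 to 24.6 TPM (median 19.2) at 20 and 12.6 to 18.2 TPM (median 14.7) at 30 nmol/kg, the last without overlap, and fell by 0.88 (SE 0.13, FDR 3.77e-07). Npc2, which hands cholesterol over within lysosomes, fell by 0.39 (SE 0.09, FDR 0.000222) from a median of 44.8 to 33.4 TPM. Its partner Npc1 was at 40.5 and 43.5 TPM by median (0.01, FDR 0.96). Mylip, the ubiquitin ligase that limits lipoprotein uptake, was at 11.5 and 13.8 TPM (0.21, FDR 0.0932), and the sterol carrier Stard4 at 12.8 and 14.1 TPM (-0.16, FDR 0.366).

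Semaglutide, which shared the vehicle mice with BI 456906, also lowered synthesis genes in liver. At 20 nmol/kg 10 members were lower (30.3%) and 7 higher (21.2%), against 23.5% and 23% of all genes. At 100 nmol/kg 11 were lower and 7 higher, against 24.1% and 24%. Among the 19 synthesis genes 7 fell at 20 (36.8%) and 8 at 100 nmol/kg (42.1%), and Ggps1 and Hsd17b7 rose at both doses.

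Fdps was at 90.1 to 226 TPM (median 139) with 20 and 96.3 to 159 TPM (median 126) with 100 nmol/kg of semaglutide, log2FC of -0.78 (SE 0.26, FDR 0.0143) and -0.83 (SE 0.27, FDR 0.0099). Acat2 was at 22.1 to 42.8 TPM (median 31.9) and 19.8 to 33.7 TPM (median 28.9), the latter below all vehicle mice, with changes of -0.98 and -1.16. Both genes were lower at each dose of semaglutide.

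Nsdhl was at 13.1 to 35.6 TPM (median 20.2) and 13.1 to 25.4 TPM (median 21.9) (-0.88 and -0.98), and Fdft1 at 15 to 39.1 TPM (median 21.8) and 16.7 to 33.9 TPM (median 25) (-0.7 and -0.63). Hsd17b7 was at 18.1 to 27.4 TPM (median 21.1) and 15.3 to 40.1 TPM (median 23.9) (0.65 and 0.92), above all vehicle mice at the lower dose. These 3 genes passed at both doses, in the directions seen with BI 456906.

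Abca1 was at 24.8 to 29.6 TPM (median 27.6) with 20 and 22.2 to 28.8 TPM (median 26.5) with 100 nmol/kg of semaglutide, again without overlap, and rose by 0.81 and 0.77. Abcg8 was at 41.6 to 55.5 TPM (median 53.1) and 39 to 58 TPM (median 47.5) and rose by 0.58 and 0.48. Ggps1 was at 4.38 to 5.15 TPM (median 4.82) and 4.11 to 5.26 TPM (median 4.68), above all vehicle mice at both doses. Hmgcs1, Pmvk, Mvd, Msmo1 and Cyp51 passed with BI 456906 at 30 nmol/kg and with neither dose of semaglutide, their FDR with semaglutide at 100 nmol/kg being 0.565, 0.113, 0.211, 0.263 and 0.592. Mylip passed with both semaglutide doses (higher by 0.28 and 0.26) and Npc1 with 100 nmol/kg (higher by 0.26), but neither with BI 456906 at any dose. No gene of these contrasts passed in the direct comparisons of the compounds below (limma/voom over all libraries, without sample weights). With sample quality weights some were called as lower with BI 456906. At the highest doses these were Hmgcs1 (-0.57, FDR 0.0405), Pmvk (-0.54, FDR 0.0384) and Npc1 (-0.24, FDR 0.0285), and at 20 nmol/kg Mylip (-0.335, FDR 0.0334). Passing with only 1 compound is by itself no shown difference between them, and for these genes the direct comparison depended on the fit.

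The compounds were compared directly at the dose they share, 20 nmol/kg. None of the 33 members passed (limma/voom), 4 had an unadjusted p under 0.05, and 2.42% of all genes passed. The difference, BI 456906 minus semaglutide, was -0.86 for Fdps with a 95% interval of -1.5 to -0.22 (FDR 0.153) and -0.33 for Mylip with an interval of -0.55 to -0.12 (FDR 0.087). Mylip was also the one member whose TPM values did not overlap, 10.1 to 12.5 with BI 456906 and 13.1 to 16.7 with semaglutide. The share of all genes without overlap in this pair is not given here. For Acat2 the interval was -0.54 to 0.1, for Hsd17b7 -0.42 to 0.41, for Abca1 -0.06 to 0.54 and for Sqle -1.07 to 0.54, so these data leave room for differences of such sizes. DESeq2 on the recovered reads called Fdps, and voom with sample quality weights called Mylip, as the only member in each case.

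At the highest dose of each compound, which differ (30 nmol/kg of BI 456906 and 100 nmol/kg of semaglutide), 3 members were lower with BI 456906 and none was higher, while 5.59% of all genes were lower. They were Fdps at -1.02 (SE 0.33, FDR 0.0402), Fdft1 at -0.76 (SE 0.22, FDR 0.0193) and Soat2 at -0.56 (SE 0.13, FDR 0.00486). The TPM values of 3 members did not overlap between these groups, and the share of all genes that did so is not given here. With BI 456906 Fdps was lower (25.4 to 90.2 against 96.3 to 159 TPM), Npc1 was lower (38.3 to 46.5 against 48.1 to 55 TPM, FDR 0.0726) and Ebp was higher (176 to 202 against 136 to 171 TPM, FDR 0.146). Npc1 passed as lower with sample quality weights (log2FC -0.24, FDR 0.0285). Ebp passed as higher with sample quality weights (log2FC 0.22, FDR 0.0477) and in the limma fits on log2(TPM + 1) and log2(TPM + 0.1) (both 0.25). Without semaglutide replicate 81, the second shallowest liver library at 30040261 reads, 6 members passed, Hmgcs1, Nsdhl and Stard4 in addition. The share of all genes in that refit is not given here. Fdps did not pass when no filter on low values was used.

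Within a group the synthesis genes of a mouse tended to be high or low together. Of the 6 livers at 10 nmol/kg, replicate 57 held the highest TPM for 17 of 19 synthesis genes, and its Fdps level of 175 TPM stood above 71.3 to 110 TPM in the others. Replicate 49 was highest for 14 at 3 nmol/kg, replicate 78 for 14 with semaglutide at 20 nmol/kg and replicate 48 for 13 with vehicle. Replicate 52 was lowest for 16 genes at 3 nmol/kg, and replicates 44 of vehicle and 70 at 30 nmol/kg were each lowest for 14. Among the 14 other members the largest such count was 9 lowest values, in semaglutide replicate 81. The genes are not independent replicates, and no test was made. Replicate 57 held 48182411 reads and 106940 TPM of hepatocyte markers. Without it 14 members passed at 10 nmol/kg, where 12 did with it, and the share of all genes in that refit is not given here.

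**Figure D4:**
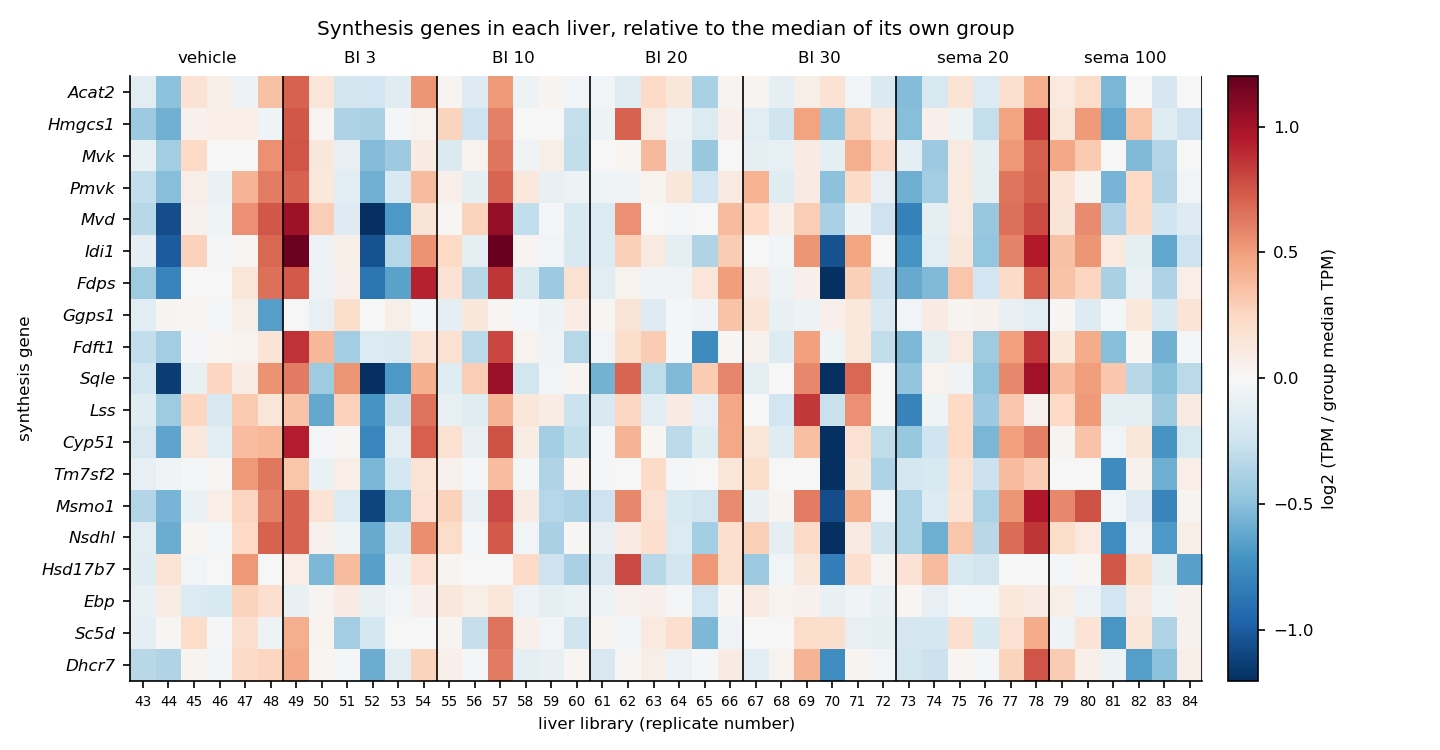
The 19 synthesis genes (rows) in each of 42 livers (columns, by replicate number, with lines between groups), as log2 of TPM over the median TPM of the mouse's own group; colours end at 1.2 in each direction. Whole columns share a colour, red in replicates 49, 57 and 78 and blue in 44, 52 and 70, while Ggps1 and Ebp vary least.

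In eWAT fewer members passed, and none rose at any dose of BI 456906. At 3 and 10 nmol/kg none of the 33 passed (limma/voom), 4 and 11 had an unadjusted p under 0.05, and 0.00539% and 0.513% of the 18536 genes tested passed. At 20 nmol/kg 7 members were lower against 2.91% of all genes, and at 30 nmol/kg 13 against 13%. The TPM values at 30 nmol/kg lay wholly below vehicle for 9 members, where 2.9% of all genes did so. The slope on dose passed as negative for 14 members and as positive for 1, Mylip, against 15.8% and 13.8% of all genes. Semaglutide at 20 nmol/kg lowered 6 members against 4.54% of all genes. At 100 nmol/kg 11 were lower and 1, Npc1, was higher, against 9.42% and 5.48%.

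Hmgcs1 made the largest fall of the members in eWAT at 30 nmol/kg of BI 456906. It was at 51.8 to 79.3 TPM (median 63) with vehicle, 35.1 to 65.6 TPM (median 51.6) at 3, 32.2 to 66.9 TPM (median 45.4) at 10, 29.8 to 52.2 TPM (median 47.6) at 20 and 26.5 to 39.7 TPM (median 31.9) at 30 nmol/kg. With semaglutide it was at 32.1 to 49.9 TPM (median 40.01) at 20 and 27.6 to 63.3 TPM (median 34.4) at 100 nmol/kg. The groups given 30 nmol/kg of BI 456906 and 20 nmol/kg of semaglutide lay below all vehicle mice. At 30 nmol/kg it had a log2FC of -1.01 (SE 0.16, FDR 4.01e-05).

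Sc5d was at 31.5 to 57.6 TPM (median 38.7) with vehicle, 23.4 to 37 TPM (median 32.2) at 3, 15 to 43.8 TPM (median 23.4) at 10, 23.6 to 31.5 TPM (median 27.4) at 20 and 14.4 to 29.4 TPM (median 23.5) at 30 nmol/kg, and at 18.9 to 27.9 TPM (median 24.3) and 13.7 to 28.5 TPM (median 18.5) with semaglutide. It fell by 0.89 (SE 0.18, FDR 0.000699) at 30 nmol/kg and by 1.07 (SE 0.19, FDR 0.000165) with 100 nmol/kg of semaglutide. Neither these groups nor those at 20 nmol/kg of either compound overlapped vehicle.

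Insig1, whose level in liver did not pass at any dose, was at 56.3 to 104 TPM (median 71.6) in eWAT with vehicle, 44.1 to 72.8 TPM (median 62.4) at 3, 39.6 to 70.6 TPM (median 62.2) at 10, 37.4 to 57.8 TPM (median 52.3) at 20 and 36.2 to 52.5 TPM (median 40.5) at 30 nmol/kg, and at 50.1 to 63.7 TPM (median 61.2) and 39 to 72.5 TPM (median 48.9) with semaglutide. At 30 nmol/kg no mouse reached the lowest vehicle mouse, and the log2FC was -0.85 (SE 0.14, FDR 7.12e-05).

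The other sensing genes did not pass in eWAT in any group. Srebf2 was at 25 to 30.9 TPM (median 29.1) with vehicle and 22.4 to 29 TPM (median 25.6) at 30 nmol/kg (-0.16, FDR 0.354). Scap was at medians of 30.7 and 32.1 TPM (0.11, FDR 0.121) and Insig2 at 72.7 and 86.5 TPM (0.19, FDR 0.417).

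The remaining falls in eWAT at 30 nmol/kg were those of Nsdhl by 0.79, Tm7sf2 by 0.73, Fdps by 0.72, Hsd17b7 by 0.69, Cyp51 by 0.58, Idi1 by 0.53, Npc2 by 0.44, Lss by 0.37, Stard4 by 0.37 and Ebp by 0.25 on the log2 scale, with FDR from 4.49e-05 to 0.0169. Npc2, the most abundant member there, was at 426 to 612 TPM (median 488) with vehicle and 329.6 to 418 TPM (median 387) at 30 nmol/kg, without overlap. None of 8 macrophage markers passed in this comparison. Their summed level was 3744 to 9638 TPM (median 8264) with vehicle and 4594 to 12512 TPM (median 6040) at 30 nmol/kg. Of 5 stellate cell and fibroblast markers 2 were higher, and their summed level was 1314 to 1963 TPM with vehicle and 2073 to 2584 TPM at 30 nmol/kg, without overlap and with none at 0. Both mesothelium markers were higher as well (summed level 1.93 to 54 TPM against 24.2 to 98.8 TPM). Of 6 adipocyte markers 1 was lower and none passed as higher. Their summed level was 17598 to 33776 TPM (median 19646) with vehicle and 15802 to 29289 TPM (median 27304) at 30 nmol/kg, a higher median with overlap. The part of these cells in the falls of the members was not tested. None of the 5 export genes passed in eWAT in any group.

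Liver transcripts moved with the eWAT groups: Alb had a median of 917 TPM with vehicle and of 42.2 to 143 TPM in the treated groups, and 4 of 6 hepatocyte markers were lower at 30 nmol/kg. With log2(Alb TPM + 1) as a covariate, a fit chosen after the data were seen, 10 members passed at 30 nmol/kg and all were lower. Ebp, Idi1 and Lss no longer passed, at -0.21 (FDR 0.0577), -0.37 (FDR 0.0842) and -0.27 (FDR 0.101) against -0.25, -0.53 and -0.37 without the covariate. In that fit Hmgcs1 was at -0.88 and Insig1 at -0.73. The counts fell to 4 at 20 nmol/kg and, with semaglutide, to 2 at 20 and 7 at 100 nmol/kg. The share of all genes that passed with the covariate is not given here, so these counts cannot be set against a background. Idi1 did not pass without vehicle replicate 6, nor Lss without vehicle replicate 5 or 6 or without replicate 29 at 30 nmol/kg. Abcg5 and Abcg8, near 1 TPM, were highest among the vehicle libraries at 3.18 and 1.99 TPM in replicate 2, the library with the most Alb.

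The effect of 30 nmol/kg differed between the tissues for 14 members, as tested by the interaction in one fit of all 84 libraries over 15297 genes. The liver effect was the lower one for 10 members and the higher one for 4, where 25.3% and 20.6% of all genes passed in these directions. The difference, liver minus eWAT, was -1.62 (SE 0.28, FDR 1.7e-06) for Acat2 and -1.48 (SE 0.31, FDR 6.87e-05) for Fdft1, which fell in liver and were at 0.13 (FDR 0.693) and -0.02 (FDR 0.958) in eWAT. It was 1.57 (SE 0.28, FDR 4.47e-06) for Hsd17b7, which rose in liver and fell in eWAT, and 1.03 (SE 0.2, FDR 2.48e-05) for Abca1, which rose in liver and was at -0.2 (FDR 0.315) in eWAT. The labels do not tie a liver to the fat of the same mouse, so the tissues were not paired. By the study's group size some mice gave both tissues, and the test treats all libraries as independent.

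In eWAT Acat2 was at 23.7 to 45 TPM (median 28) with vehicle and 20.3 to 41.6 TPM (median 37.2) at 30 nmol/kg, and its medians in the groups between were 25.9, 20.7 and 26 TPM at 3, 10 and 20 nmol/kg. Fdft1 was at 14.2 to 28.2 TPM (median 16.8) and 10.6 to 22.3 TPM (median 21.2), with medians of 15.2, 13.8 and 18 TPM between them. Both overlapped vehicle in every group, with medians of 25.8 and 23.7 TPM for Acat2 and 15.6 and 12.7 TPM for Fdft1 with semaglutide at 20 and 100 nmol/kg. Among the vehicle mice the highest levels of both genes were in replicates 5 and 6, which also held the most adipocyte markers (33776 and 32456 TPM). The part of adipocyte content in these levels was not tested.

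Hsd17b7 in eWAT was at 3.47 to 5.63 TPM (median 4.17) with vehicle, 3.71 to 4.56 TPM (median 4.12) at 3, 2.68 to 4.39 TPM (median 3.34) at 10, 2.78 to 3.85 TPM (median 3.15) at 20 and 2.17 to 3.41 TPM (median 2.79) at 30 nmol/kg, and at 2.67 to 3.65 TPM (median 2.93) and 2.45 to 3.21 TPM (median 2.98) with semaglutide. The groups at 30 nmol/kg and at 100 nmol/kg of semaglutide lay below vehicle. Abca1 was at 82.3 to 118 TPM (median 106) with vehicle and 66.4 to 110.0 TPM (median 93.2) at 30 nmol/kg, with medians of 103, 91.3, 96.5, 100.0 and 104 TPM in the other treated groups, and overlapped vehicle throughout.

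The other members whose effect was lower in liver were Fdps (-1.23), Nsdhl (-1.09), Mvk (-1.0), Pmvk (-1.0), Mvd (-0.98), Abcg1 (-0.72), Dhcr7 (-0.65) and Scap (-0.42). Insig1 (0.55) and Ggps1 (0.32) were higher. Hmgcs1, with the largest fall in eWAT at that dose, and Sc5d did not pass this test, with intervals of -0.31 to 0.78 and -0.41 to 0.55.

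**Figure D5:**
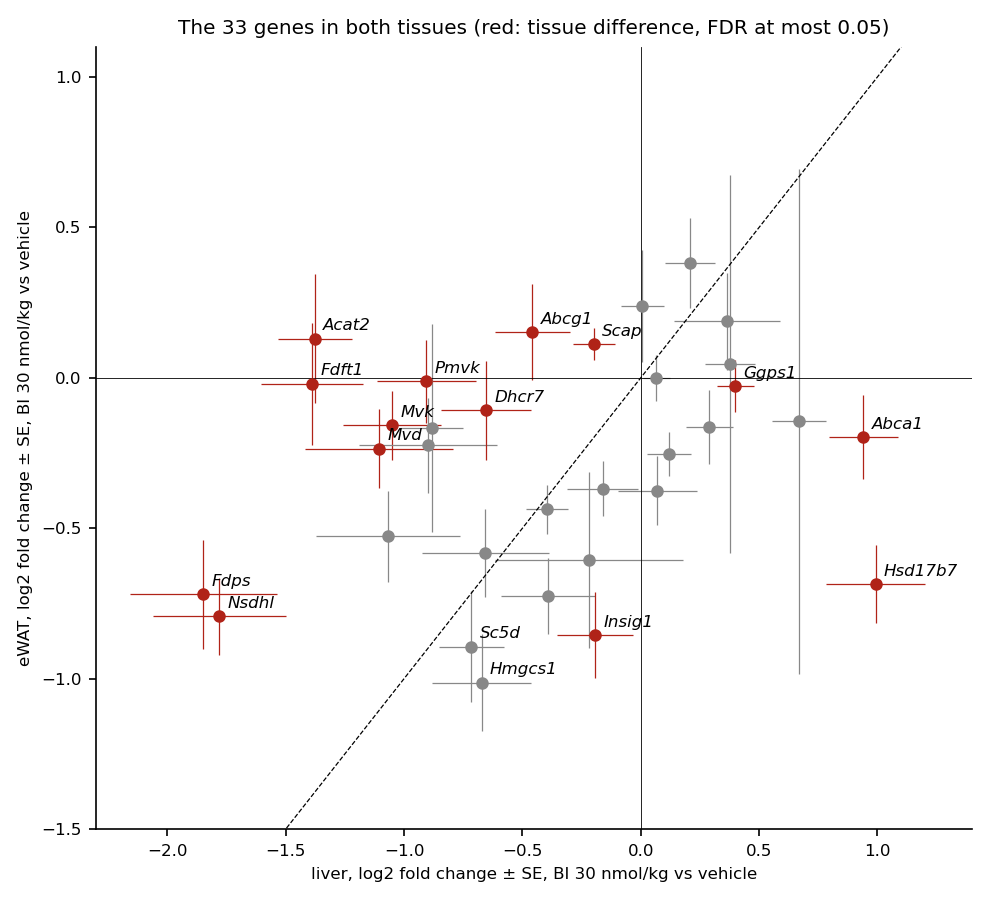
Log2 fold change ± SE at 30 nmol/kg of BI 456906 against vehicle in liver (x axis) and eWAT (y axis) for the 33 genes (points), with the line of equal change dashed; red marks an FDR of at most 0.05 for the difference between tissues. Acat2, Fdft1 and Fdps lie far left of the line, and Hsd17b7 and Abca1 right of it.

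Other genes of the pathway, 34 from a list outside the members, were counted in the same fits. In liver at 30 nmol/kg 33 were tested, 6 were higher and 15 lower, against 28.9% and 29.9% of all genes, with a median log2FC of -0.12. All 4 genes of acetyl-CoA supply were lower, among them Acss2, which makes acetyl-CoA from acetate and was at 59.2 to 119 TPM (median 72.03) with vehicle and 15.95 to 26.9 TPM (median 24.5) in treated mice, a log2FC of -1.95 (FDR 1.24e-08). Of the 4 with the lowest FDR, the sterol transport genes Tmem97 and Lipa also fell, by 1.0 and 0.8, and Pggt1b, a subunit of the enzyme that attaches geranylgeranyl groups to proteins, rose by 1.41. Pggt1b was at 1.49 to 3.39 TPM (median 1.98) with vehicle and 5.09 to 6.63 TPM (median 5.88) in treated mice, without overlap. In eWAT 3 of 34 were higher and 7 lower, against 10.9% and 13% of all genes. The 4 with the lowest FDR there all fell: Rnf145, a ubiquitin ligase that acts in sterol feedback, by 0.45, Acly, which makes acetyl-CoA from citrate, by 0.33, Erlin2, a partner in sterol-regulated protein degradation, by 0.38 and Pggt1b by 0.3.

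Some members share annotated bases with other genes, and their reads could have been split or shared. Fdps overlaps the gene model Gm43738 over 7512 bases on the same strand, Mvd overlaps Gm20388 over 9822 bases on the other strand, and Fdft1 overlaps Ctsb over 774 bases on the other strand. Tm7sf2 overlaps Vps51 over 532 bases on the same strand, and on the other strand Npc1 overlaps Rmc1 over 967, Ggps1 overlaps Arid4b over 257 and Cyp51 overlaps Akap9 over 166 bases. With Abcg5 and Abcg8, 9 members overlap a coding gene, and their values are uncertain to that extent.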

How the data were processed

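Per the labels, RNA of liver and eWAT was made into libraries with a SMART-Seq v4 kit and read single-end, while the study's methods describe another kit and paired reads, so the library type is unsettled. The submitters' processing notes name STAR 2.5.2b, RSEM 1.3.0, featureCounts 1.5.1 and FastQC 0.11.5 with mouse build mm10 (GRCm38). For each tissue the authors deposited a table of read signal per gene, in which every value was a whole read count divided by 1 factor per library (100% of values within 0.001 of a whole read), and a table of TPM. Authors' comparison columns were absent from these tables.

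From the deposited signal, genes were filtered with filterByExpr and scaled by TMM in edgeR 4.0.16, and fitted by limma/voom in limma 3.58.1 (R 4.3.3, pseudocount 0.5), 1 fit per tissue over all 42 libraries without covariates. P-values were adjusted by Benjamini-Hochberg over all genes tested, and a gene passed at an FDR of at most 0.05. Levels are TPM. The tissue difference was an interaction in 1 fit of 84 libraries. edgeR's quasi-likelihood test and DESeq2 1.42.0 ran on the recovered reads as alternatives, beside other filters, pseudocounts, sample quality weights and libraries left out. The code was first tested on simulated data. Within a tissue each library was taken as 1 mouse, and no 2 libraries of a group agreed within sampling noise. Liver and eWAT libraries are not tied to mice by the labels. Of 48794 identifiers 48348 had a symbol.

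The members and lists were chosen with earlier results of these data known. Described in full were the 4 largest rises and falls in liver at 30 nmol/kg, the 4 sensing genes, the 3 largest falls in eWAT, where none rose, and the 4 tissue differences and 4 other pathway genes of lowest FDR. The fits without single libraries of the 10 nmol/kg and semaglutide groups and the fit with Alb were added after seeing the data. Some members of the pathway are not reported here.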

Additional observations from a re-analysis of the deposited data

Results flagged for a closer look

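Of 462 sets of 6 mice (33 genes, 7 groups, 2 tissues), 35 held 1 mouse far from the other 5 by Dixon's test, where chance gives about 1 in 20. In liver at 10 nmol/kg of BI 456906, 12 of these were the same mouse, replicate 57, which was the highest of its group for Acat2 (47.5 TPM), Mvk (10.5), Pmvk (70.1), Mvd (7.45), Idi1 (57.8), Fdps (175), Fdft1 (38.5), Sqle (16.6), Sc5d (215), Dhcr7 (36.4), Stard4 (25.6) and Soat2 (28 TPM). These genes vary together, so they are not 12 separate observations.

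Replicate 56 of the same group was highest for Nr1h3 (111 TPM) and Abcg1 (8.57 TPM), and its summed macrophage markers, 449.67 TPM, were the highest of all livers. Replicate 49 at 3 nmol/kg stood out for Hmgcs1 (131 TPM) and Npc2 (50.3 TPM). At 20 nmol/kg replicate 62 stood out for Hmgcs1 (87.4 TPM) and replicate 66 for Abca1 (25 TPM). Vehicle replicate 48 had the lowest Ggps1 level, 2.33 TPM. With semaglutide at 100 nmol/kg replicate 79 had the highest Srebf2 level, 29.6 TPM, and replicate 81 stood out for Insig2 (821 TPM) and Soat2 (14.3 TPM).

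In eWAT the mice that stood out differed from gene to gene. With semaglutide at 100 nmol/kg they were replicate 38 for Hmgcs1 (63.3 TPM), replicate 39 for Pmvk (45.5 TPM), replicate 42 for Abcg8 (1.04 TPM, with Alb at 747 TPM) and replicate 40 for Soat2 (4.28 TPM, with Alb at 3.47 TPM). With semaglutide at 20 nmol/kg they were replicate 35 for Sqle (15.4 TPM) and replicate 31 for Insig2 (125 TPM). Replicate 15 at 10 nmol/kg of BI 456906 had the highest Abcg5 (2.88 TPM) and Abcg8 (1.57 TPM) levels of its group, with Alb at 1705 TPM. The others were Ggps1 in replicate 9 (18.1 TPM) and Soat2 in replicate 7 (1.11 TPM) at 3 nmol/kg, Cyp51 in vehicle replicate 1 (9.53 TPM), and Cyp51 in replicate 28 (8.97 TPM) and Fdft1 in replicate 29 (10.6 TPM) at 30 nmol/kg. Replicate 29 had the lowest summed adipocyte markers of its group (15802 TPM) and the highest summed macrophage markers (12512 TPM). The part of this in its Fdft1 level was not tested.

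The effect of 30 nmol/kg differed between liver and eWAT by the interaction test for 14 members (42.4%). It was lower in liver for 30.3% and higher for 12.1% of the members, against 25.3% and 20.6% of all genes. The number that differed was thus not above the background. Liver minus eWAT, the log2 effects were -1.62 for Acat2, -1.48 for Fdft1, -1.23 for Fdps, -1.09 for Nsdhl, -1.0 for Mvk and for Pmvk, -0.98 for Mvd, -0.72 for Abcg1, -0.65 for Dhcr7 and -0.42 for Scap. They were 1.57 for Hsd17b7, 1.03 for Abca1, 0.55 for Insig1 and 0.32 for Ggps1.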

How the results depend on the processing

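Of 748 refits of single gene changes at 30 nmol/kg, none changed direction and 20 lost the call, over 5 of 35 gene and tissue pairs: Cyp51 and Abcg1 in liver, and Lss, Idi1 and Ebp in eWAT. The counts of members that passed with 1 library left out ranged from 21 to 23 in liver and from 12 to 14 in eWAT at 30 nmol/kg, and for single libraries chosen afterwards they were 14 at 10 nmol/kg, 24 for the slope, 18 and 15 for semaglutide at 20 and 100 nmol/kg and 0 for the compounds at 20 nmol/kg. The shares of all genes in these and the following refits are not given here. Counts that moved by over 1.5 times were these, and the cause was not tested. In liver at 3 nmol/kg the 2 members became 0 with no filter, 1 on log2(TPM + 1), 1 on log2(TPM + 0.1) and 5 with sample quality weights. In eWAT the count of 0 at 10 nmol/kg became 7 with sample quality weights, and 7 at 20 nmol/kg became 11 with DESeq2. With Alb as a covariate 4 passed in eWAT at 20 nmol/kg, and with semaglutide 2 at 20 and 7 at 100 nmol/kg. Between the compounds, 1 member passed at 20 nmol/kg with DESeq2 and 1 with sample quality weights, and at the highest doses the 3 became 6 with DESeq2, 11 with sample quality weights and 6 without semaglutide replicate 81. No paired analysis was possible because the groups share no replicate number.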
